A study of Mus musculus with 12 samples.

Results

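The 8 salivary tumors of this series that lacked wild-type p53 fell into 2 expression branches that ran across genotype. One branch held 3 tumors, the p53-null tumors KO1 and KO4 and the R172H tumor MT4, and the other held 5, the p53-null tumors KO2 and KO3 and the R172H tumors MT1, MT2 and MT3. They are 8 of the 12 tumors measured, the other 4 having wild-type p53 (WT1 to WT4). The branches were selected on expression itself, by average-linkage clustering on 1 minus the Pearson correlation of all 22626 probe sets other than the array's control probe sets, each centered on its mean over the 12 tumors. Every difference between the branches given here for a gene is therefore a description of how the tumors were sorted and carries no test.

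All 12 tumors arose in adult MMTV-ras transgenic mice, in which the mouse mammary tumor virus promoter drives a ras oncogene in salivary and mammary epithelium. KO tumors came from MMTV-ras/p53-/- mice, MT tumors from MMTV-ras/p53R172H/R172H mice, and WT tumors from MMTV-ras/p53+/+ mice, on mixed Balb/c and C57BL/6 stock, and ages beyond adult are not given. RNA of frozen tumor sections was read on 1 Affymetrix mouse array per tumor, with no repeat array, so the spread within a branch holds tumor-to-tumor and array differences together. In bulk tissue, fewer cells of a type and less RNA per cell cannot be told apart.

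Wild-type p53 is a transcription factor that halts or kills damaged cells. A null allele removes the protein, and R172H, the mouse counterpart of a common human hotspot substitution, leaves a protein that no longer binds its usual DNA sites. Tumors without working p53 commonly gain and lose chromosomes, and a salivary tumor can keep or lose acinar, ductal and stromal programs largely on its own course, so tumors of 1 genotype need not look alike.

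Values are log2 expression levels, on which 1 unit is a 2-fold change. The 2 branches joined at a height of 1.14, and the 8 tumors joined the WT tumors at 1.23. Inside the 3-tumor branch, KO1 and KO4 joined at 0.811 and took in MT4 at 0.890. Inside the 5-tumor branch, MT1 and MT3 joined at 0.492, MT2 was added at 0.822, KO2 and KO3 joined at 0.725, and these sets met at 0.891. MT4 was thus about as far from its KO partners as the KO and MT tumors of the larger branch were from each other.

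The mean correlation was 0.136 over the 3 pairs within the smaller branch (0.0481 to 0.189), 0.179 over the 10 pairs within the larger one (-0.0655 to 0.508) and -0.141 over the 15 pairs between them (-0.270 to 0.0577). KO4 and MT4 were the loosest pair of the 3-tumor branch, at 0.0481, and MT2 and KO3 that of the 5-tumor branch, at -0.0655. KO1 with KO3, at 0.0577, was the closest pair across the division. MT4 correlated at 0.110 on average with KO1 and KO4, and at -0.226 with the MT tumors of its own genotype. The p53-null tumors of different branches correlated at -0.0148 on average, against 0.189 for KO1 with KO4 and 0.275 for KO2 with KO3. The branches, which were chosen on these same values, took up 28.8% of the variance among the 8 tumors summed over probe sets. KO against MT took up 18.6%. MT1, MT2 and MT3 against the other tumors, the division shown by the poly-A controls below, took up 23.5%. Any division of the tumors takes up some share of the variance, and none of these shares was tested. All 8 tumors were placed the same way under each of 11 other settings of the clustering, and the remaining 7 in each of the 8 trees that left 1 tumor out.

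**Figure D1:**
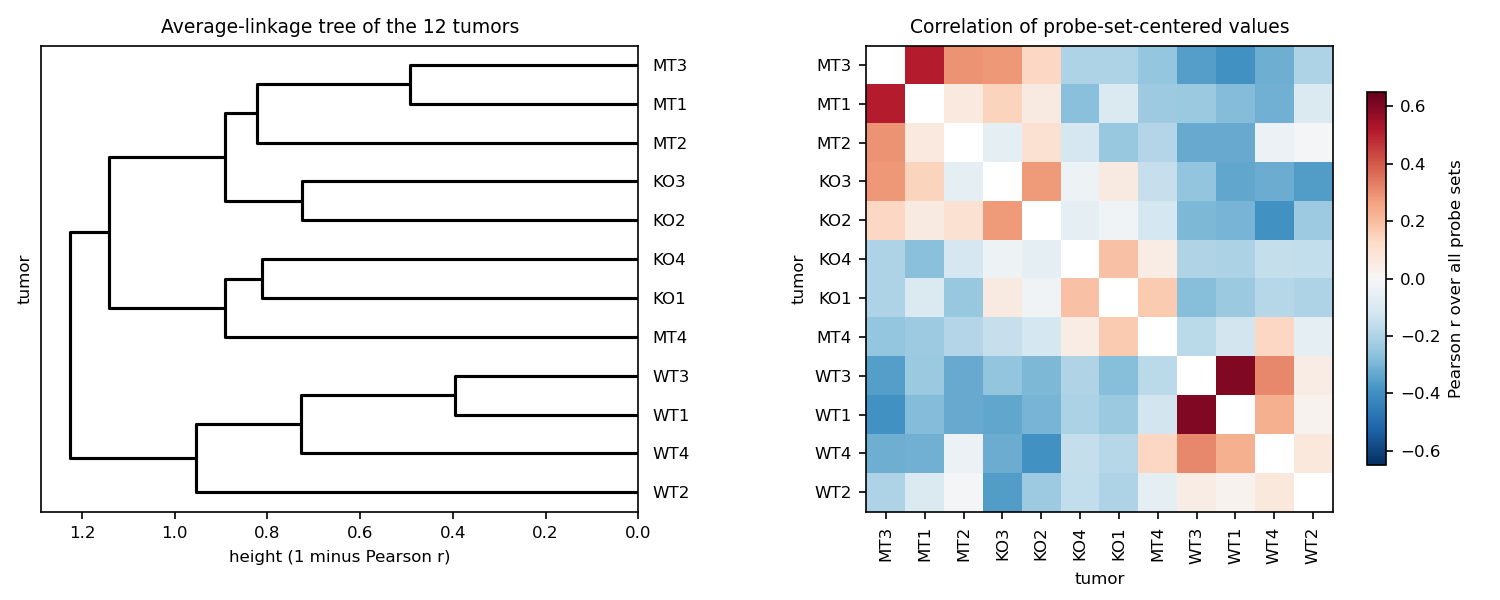
Left, average-linkage tree of the 12 tumors, with height as 1 minus Pearson r of probe-set-centered values. Right, the correlation of each pair of tumors over 22626 probe sets (color, Pearson r; diagonal left blank); KO1, KO4 and MT4 form a branch that meets the other 5 KO and MT tumors at 1.14.

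Measures the clustering did not use came from the control probe sets, which were left out of it. The hybridization controls, bacterial transcripts added to every sample just before it went onto the array, averaged 10.15 in KO1, 10.15 in KO4 and 10.04 in MT4. They averaged 9.40 in KO2, 9.31 in KO3, 9.17 in MT1, 8.88 in MT2 and 9.10 in MT3. The branches did not overlap, with a difference of 0.94, and each of the 18 hybridization control probe sets was higher in all 3 tumors of the smaller branch, inside the p53-null genotype as well. An exact permutation test, 2-sided, gave p = 0.0357 for this difference, the smallest p that 3 tumors against 5 allow, and an adjusted p of 0.107 over the 6 control measures tested. WT tumors spanned 9.11 to 10.13 on the same controls.

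The poly-A controls, spiked into RNA before labeling, stood at 10.38 in MT1, 10.50 in MT2 and 10.56 in MT3 and between 3.98 and 4.23 in all other tumors, so MT4 sat with the KO and WT tumors and apart from its own genotype. Compared between the branches, these controls also gave an exact permutation p of 0.0357 and an adjusted p of 0.107. The size of the difference comes from MT1 to MT3. KO2 at 4.11 and KO3 at 4.09 were on the low side, slightly above MT4 at 4.05, KO4 at 4.03 and KO1 at 3.98. The branches thus did not overlap, but without MT1 to MT3 the difference was only -0.08. Its exact permutation p was 0.2, the smallest that 3 tumors against 2 allow, so the test cannot decide whether these controls divide the branches on that side. The ribosomal 18S probe sets averaged 7.69 ± 0.32 (SD, n = 3) and 6.87 ± 0.47 (SD, n = 5), with an adjusted exact permutation p of 0.143. The B2 repeat and the 3' minus 5' values of actin and Gapdh had adjusted exact permutation p values of 0.161 to 0.75. Of the 4 p53-null tumors, which are all on the low poly-A side, the hybridization controls still parted KO1 and KO4 from KO2 and KO3 by 0.80. The part of these array measures in the gene differences below was not tested.

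A total of 343 probe sets, naming 249 genes, were higher in the 3-tumor branch with no overlap between branches and a difference of means of at least 1. Only 77 probe sets, naming 63 genes, were lower by the same rule. Of all 22626 probe sets, 1.86% parted the branches, 1.52% upward and 0.34% downward. Parting by genotype, MT against KO, was met by 0.477% of probe sets, and parting along the poly-A controls (high in MT1 to MT3, low elsewhere) by 1.53%. Fewer tumors make the rule easier to meet: without MT4 the higher count was 533, and the lower count was 162 without KO1, 156 without KO4, 168 without MT4, 116 without KO3 and 117 without MT2. Among the 5 tumors on the low poly-A side, 169 were lower. Nearest the limit on the inside were Snx14 at 1.00 and Ptms at -1.002, and nearest on the outside Mbip at 0.999 and Mcts2 at -0.999.

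Amy1, which encodes salivary amylase, had the largest difference of the named genes on the higher side. It was 12.11 in KO1, 10.09 in KO4 and 11.07 in MT4, against 4.59 in KO2, 4.65 in KO3, 8.81 in MT1, 7.40 in MT2 and 5.96 in MT3, a difference of branch means of 4.81, or 28.0-fold. KO2 and KO3 were thus lowest of all tumors, and the 4 WT tumors, at 10.17 to 13.29, were all above KO4. Amylase genes are near-identical copies, so the probe set may also read other amylase transcripts.

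RefSeq gives Amy1 a pair of start sites, and the array reads the transcript without showing which was used. The 250 bases before each start, both on the minus strand of chromosome 3 in GRCm38.p6, are shown because Amy1 has the largest difference of any named gene, with those before Fbln2 on the plus strand of chromosome 6, a leading gene of the opposite direction. Capitals mark TATAAA, the core of a TATA box, and GGGCGG, a GC box, each searched on both strands. TATAAA occurs in 12.4% and GGGCGG in 32.7% of the 32851 RefSeq windows of this length.
Amy1 first start, chr3:113577751-113578000: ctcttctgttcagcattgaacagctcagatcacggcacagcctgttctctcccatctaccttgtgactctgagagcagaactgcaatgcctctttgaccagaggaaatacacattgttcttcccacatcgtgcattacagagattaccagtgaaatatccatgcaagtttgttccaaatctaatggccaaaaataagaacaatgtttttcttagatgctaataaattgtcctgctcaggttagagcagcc
Amy1 second start, chr3:113574763-113575012: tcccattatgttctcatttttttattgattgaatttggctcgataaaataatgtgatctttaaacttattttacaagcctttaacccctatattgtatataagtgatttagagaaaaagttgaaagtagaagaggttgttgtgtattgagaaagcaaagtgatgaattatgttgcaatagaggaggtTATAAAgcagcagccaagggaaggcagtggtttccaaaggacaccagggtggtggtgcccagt
Fbln2, chr6:91212514-91212763: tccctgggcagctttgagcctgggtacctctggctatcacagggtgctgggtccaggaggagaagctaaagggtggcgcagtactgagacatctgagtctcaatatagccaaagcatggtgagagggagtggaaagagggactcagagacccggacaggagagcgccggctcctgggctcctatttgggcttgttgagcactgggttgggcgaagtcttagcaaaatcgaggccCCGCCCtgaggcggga
The second Amy1 window holds 1 TATAAA and the first none, and neither holds GGGCGG, while the Fbln2 window holds 1 GGGCGG on the opposite strand. GC content was 42.4% and 36.0% in the Amy1 windows and 58.8% in that of Fbln2.

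Mal, a membrane protein that sorts proteins to the apical surface of epithelial cells, stood at 9.01 in KO1, 9.80 in KO4 and 9.75 in MT4. In the other branch it ran from 4.67 in KO3 to 8.20 in MT2, with KO2 at 4.98, MT1 at 5.33 and MT3 at 6.12, and the branch means differed by 3.66, or 12.7-fold. MT2 therefore came closest to the smaller branch. Scara3, a scavenger receptor family member, was 11.19 in KO1, 8.46 in KO4 and 9.30 in MT4, against 5.14 in KO2, 7.27 in KO3, 5.53 in MT1, 8.21 in MT2 and 5.10 in MT3. KO4 and MT2 were only 0.25 apart on this gene, although the branch means differed by 3.40.

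Car2, the cytosolic carbonic anhydrase, was 9.20 in KO1, 10.72 in KO4 and 11.33 in MT4, and 6.73 to 8.62 in the 5-tumor branch, with MT2 again highest. Clu, encoding the secreted chaperone clusterin, was 13.62, 13.28 and 13.24 in KO1, KO4 and MT4. It was 10.34 in KO2, 11.75 in KO3, 10.82 in MT1, 12.21 in MT2 and 10.60 in MT3. All 4 probe sets of Clu parted the branches without overlap, with differences of 1.95 to 2.24. The tetraspanin Tspan8 was 6.65 to 8.25 in the smaller branch and 4.33 to 5.54 in the larger one, where 4 of its values lay under 5 and MT1 stood highest.

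Pkdcc, a secreted tyrosine kinase, was 9.66 to 11.74 in the 3-tumor branch and 7.33 to 9.13 in the other, a difference of 2.80. Ggh, the lysosomal enzyme that trims folate polyglutamates, was 9.20 in KO1, 11.22 in KO4 and 12.37 in MT4 and 8.11 to 9.05 in the 5-tumor branch. KO1 lay only 0.15 above MT2 for Ggh, so MT4 and KO4 carried most of its difference of 2.33. Insig2, which holds the sterol sensor in the endoplasmic reticulum, was 8.22 to 9.39 against 6.47 to 7.61, and Ecm1, a secreted matrix protein, was 10.56 to 11.94 against 8.31 to 10.30.

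Ptpn13, Arhgap5, Rb1cc1, Acp1 and H1f2 were also among the 15 highest. Ptpn13, a protein tyrosine phosphatase, was 8.38 to 9.77 in the smaller branch and 6.04 to 7.31 in the larger. Arhgap5, a GTPase-activating protein, was 8.45 in KO1, 8.73 in KO4 and 8.79 in MT4, against 7.08 in KO2, 7.13 in KO3, 6.94 in MT1, 5.67 in MT2 and 6.30 in MT3. Its gap of 1.32 between the nearest tumors of the branches was the widest of the 15, and its other 2 probe sets parted the branches by 1.47 and 1.26. Rb1cc1, an autophagy scaffold, was 7.33 to 7.96 against 5.21 to 6.34. The phosphatase Acp1 differed by 2.14 and the linker histone H1f2 by 1.97, but 1 other probe set of each ran the opposite way, at -0.15 and -0.42. Among the 5 tumors on the low poly-A side, the difference of Acp1 was 1.22.

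Stac2 and Fbln2 had the largest differences on the lower side. Stac2, an adaptor of voltage-gated calcium channels, was 6.65 in KO1, 6.91 in KO4 and 6.69 in MT4. It was 9.14 in KO2, 8.61 in KO3, 9.57 in MT1, 9.05 in MT2 and 8.89 in MT3, 4.93-fold above the smaller branch. The gap of 1.70 between the nearest tumors of the branches was wider than the whole range inside either branch. Fbln2, encoding the matrix glycoprotein fibulin-2, was 7.54, 8.08 and 7.40 in KO1, KO4 and MT4, and 9.96 in KO2, 10.30 in KO3, 8.85 in MT1, 9.52 in MT2 and 10.45 in MT3, a difference of -2.14.

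Emid1, Vcan, Mmp2 and Igfbp4 encode secreted proteins and were also among the 15 lowest. Emid1, a collagen-like secreted protein, was 7.07 to 7.49 there and 8.01 to 10.16 in the 5-tumor branch. Vcan, encoding the proteoglycan versican, was 4.93 to 5.56 against 6.27 to 7.38, and its other 2 probe sets differed by -1.42 and -0.70, also without overlap. The gelatinase Mmp2 was 6.17 in KO1, 6.56 in KO4 and 6.63 in MT4 and 7.11 to 8.55 in the other branch. Igfbp4, which binds insulin-like growth factors, had 6 probe sets with differences of -1.49 to -1.21, of which 2 had no overlap. MT2 was the lowest tumor of the 5-tumor branch on the probe set with the largest such gap, at 9.72, against 9.12 to 9.43 in the smaller branch.

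The rest of the 15 lowest were of mixed function. The adaptor Grb10, which damps insulin receptor signaling, differed by -1.76 and was highest in MT1, at 10.23. Tfap2c, an epithelial transcription factor, was 6.97 to 7.91 in the 3-tumor branch and 8.06 to 9.37 in the other, and the keratin Krt79 was 5.53 to 5.92 against 7.12 to 7.85. Gabrp, a GABA receptor subunit of epithelia, differed by -1.43 and the monoacylglycerol lipase Mgll by -1.37. Fam234b was 7.97 to 8.03 in the smaller branch against 8.66 to 9.80. Tmem47 and C1qtnf1 differed by -1.32 and -1.31. Rps4l, an intronless copy of a ribosomal protein gene whose probes may read its parent, differed by -1.99.

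Most of these genes had further probe sets on the array. For 20 of the 30 genes there were 41 others, of which 39 differed in the same direction, 20 with no overlap and 14 by at least 1 as well. Some large differences have no gene name in the annotation used: 1 such probe set was 11.17 in KO1, 12.13 in KO4 and 12.70 in MT4 and 6.06 to 7.88 in the other branch, the largest difference of all at 5.18.

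**Figure D2:**
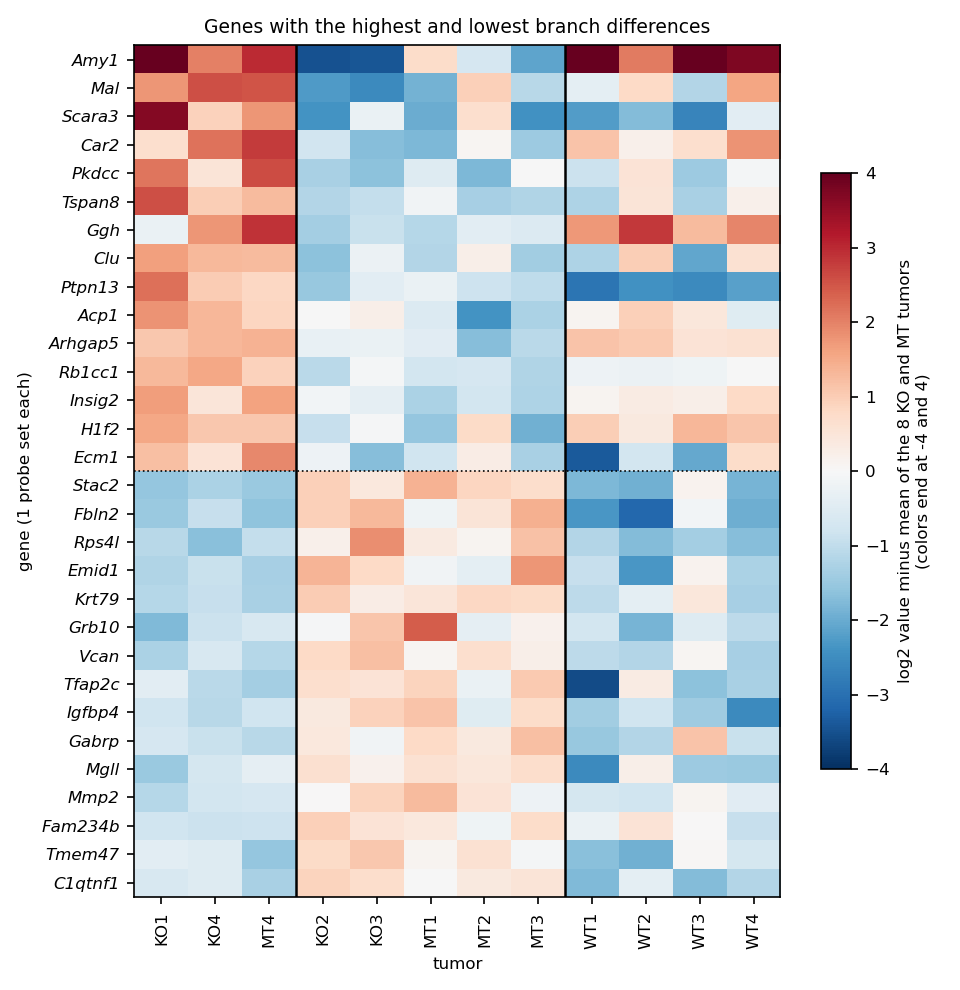
The 15 genes highest and the 15 lowest in the 3-tumor branch (rows, 1 probe set each, split by the dotted line) in the 3-tumor branch (left), the 5-tumor branch (middle) and the WT tumors (right), as the log2 value minus the mean of the 8 KO and MT tumors. Every gene shown has no overlap between the branches, and Amy1 is as high in WT tumors as in the 3-tumor branch.

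The WT tumors, which no branch holds, sided with neither branch on the higher probe sets but with the 3-tumor branch on most lower ones. Over all probe sets the mean correlation with WT tumors was -0.153 for the 3-tumor branch and -0.270 for the 5-tumor branch. Each WT tumor was on average less negatively correlated with the smaller branch. Of the 343 probe sets higher in the 3-tumor branch, 134 to 178 (39.1% to 51.9%) were nearer in each WT tumor to the mean of that branch than to that of the other. Of the 77 lower ones, 53 to 69 (68.8% to 89.6%) were. Stac2, for example, was 6.26 to 6.39 in WT1, WT2 and WT4, below the smaller branch, and 8.34 in WT3. Ptpn13 went the other way, since its 4.63 to 5.38 in WT tumors lay below every KO and MT tumor.

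Inside the p53-null genotype, 853 probe sets parted KO1 and KO4 from KO2 and KO3, which is 3.77% of all. Of these, 587 (2.59%) naming 415 genes were higher in KO1 and KO4, and 266 (1.18%) naming 199 genes were lower. With only 2 tumors on each side, more probe sets can meet the rule than between the whole branches, so the counts are not to be set against each other. With 1 KO tumor left out, the higher count was 984 without KO1, 911 without KO4, 910 without KO3 and 665 without KO2. The lower count was 796, 328, 548 and 338 in that order. In the R172H genotype, MT4 lay beyond MT1, MT2 and MT3 and at least 1 from their mean in 6.15% of probe sets, in 3.77% above and in 2.38% below them.

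The p53-null and R172H divisions shared part of their genes. Of the 587 probe sets higher in KO1 and KO4, MT4 was also above all other MT tumors in 333 (56.7%), against 27.7% of all probe sets. Of the 266 lower ones, MT4 was also below the others in 103 (38.7%), against 35.4% of all. The branch rule sorted the tumors by this likeness, so the shares describe it and test nothing. By the full rule the likeness was thus mainly on the higher side, where 180 probe sets passed in both genotypes, against 35 on the lower side. This direction did not hold without the minimum difference. At any size, 11.2% of all genes were lower in KO1, KO4 and MT4 with no overlap between the branches, against 5.12% higher. Over all probe sets the KO and MT differences correlated at r = 0.34, across probe sets that are not independent.

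**Figure D3:**
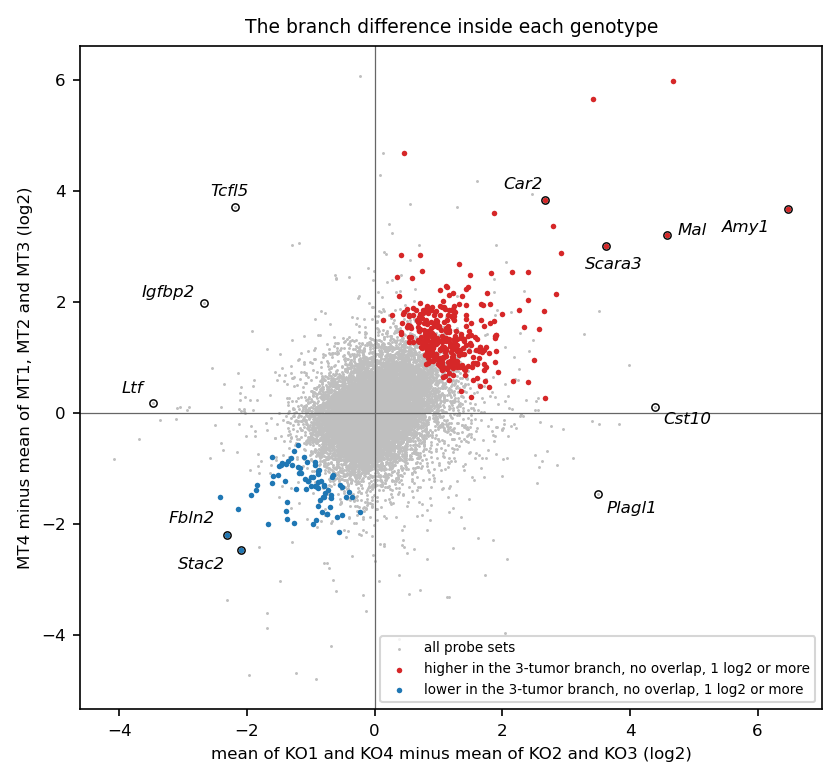
Each point is a probe set, placed by its difference inside KO (horizontal, KO1 and KO4 minus KO2 and KO3) and inside MT (vertical, MT4 minus the mean of MT1 to MT3), both in log2. Red and blue points part the whole branches (343 higher, 77 lower); Cst10, Plagl1, Ltf, Igfbp2 and Tcfl5 parted KO tumors without MT4 following.

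Genes that parted only the p53-null tumors, with MT4 not beyond the other MT tumors on the same side, were led by Cst10, a cystatin that inhibits cysteine proteases. It was 10.70 in KO1 and 12.94 in KO4 but 8.62 in KO2 and 6.24 in KO3, a difference of 4.39, while MT4 at 10.98 lay among MT1 to MT3 at 10.22 to 11.57. All WT tumors were at 13.46 to 13.61. Bpifa2, another abundant salivary secretory protein, was 13.26 and 13.59 in KO1 and KO4 and 11.28 and 11.08 in KO2 and KO3, so these 2 stood below all other tumors. Unlike for Cst10, MT4 was above the other MT tumors for Bpifa2, at 13.85 against 13.14 to 13.38.

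The carboxylesterase Ces1d was 8.33 and 7.29 in KO1 and KO4 and 3.52 and 4.14 in KO2 and KO3, and it was 7.94 in MT1. Tslp, an epithelial cytokine, was 7.28 and 9.50 against 4.45 and 5.29, with MT2 at 8.93 and MT4 at 8.07. Plagl1, an imprinted zinc finger factor, was 9.36 and 10.77 against 6.51 and 6.61, while MT4 at 5.36 was near the lowest MT tumor. Adm, the hypoxia-responsive peptide adrenomedullin, was 7.96 and 9.38 against 5.68 and 5.75. Aldh18a1, of proline synthesis, was 11.41 and 10.81 against 8.06 and 8.91, with MT4 lowest of its genotype at 7.89.

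Some of these rested on 1 tumor. Tnnt2, a troponin of heart muscle, was 9.33 in KO4 but 5.82 in KO1, where KO2 was 5.27 and KO3 4.46, and Ttr, the carrier transthyretin, was 7.82 in KO4 and 4.82 in KO1. Without KO4 their differences dropped from 2.71 to 0.95 and from 2.57 to 1.07. The actin-binding Lmod2 and the G protein regulator Rgs6 were high in both, at 7.50 and 8.05 and at 7.55 and 8.15.

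On the lower side inside p53-null, the secretory genes Scgb1b27 and Ltf led, with differences of -3.69 and -3.48. Ltf, encoding lactoferrin, was 9.94 in KO1 and 6.07 in KO4 and 11.50 and 11.47 in KO2 and KO3, so KO4 was the low tumor and the difference without it was -1.54. Scgb1b27 was 9.12 and 6.17 against 9.85 and 12.82, so KO4 was low and KO3 high, and the difference was -2.21 without KO3 and about the same without KO4. Insulin-like growth factor binding proteins also differed: Igfbp2 was 5.35 and 5.29 against 9.66 and 6.33 (a difference of -1.004 without KO2), and Igfbp5 was 7.90 and 7.46 against 9.57 and 10.01. Of cell adhesion and neural genes, the cadherin Cdh2 was 3.94 and 5.52 against 8.03 and 6.54, and Basp1 was 7.59 and 8.55 against 10.17 and 10.24. Tril and Kng1 differed by -2.58 and -2.50, Kng1 mainly through KO2 at 8.42, without which it was -1.18.

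The transcription factor Tcfl5 ran opposite ways in the genotypes. It was 6.92 and 5.87 in KO1 and KO4 and 8.70 and 8.47 in KO2 and KO3, but 10.39 in MT4 against 5.67 to 7.28 in the other MT tumors. The branch means therefore differed by only 0.29.

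Gene lists were read at 1 probe set per gene. Over all 12399 such genes, 1.19% were higher and 0.347% lower between the branches by the full rule, 5.12% and 11.2% did not overlap at any size, and the median difference was -0.08. Inside p53-null, 2.37% were higher and 1.38% lower. The lists, 15 of cell type markers and 27 of pathways, each had at most 1 member past the full rule between the branches.

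Fibroblast and matrix genes parted the p53-null tumors. Of 21 measured, 12 were lower in KO1 and KO4 by the full rule and none higher, with a list median of -1.07 against -0.09 over all genes. Collagen I, the main fibrillar collagen of stroma, was among them: Col1a1 was 8.58 in KO1, 9.28 in KO4, 10.73 in KO2 and 11.38 in KO3, and Col1a2 was 9.42, 9.72, 11.41 and 11.80 in that order. Col3a1 was 9.76, 9.97, 11.24 and 11.48. The matricellular protein Postn was 9.35, 9.18, 10.37 and 10.45, and Fap, a protease of activated fibroblasts, was 5.42, 5.65, 7.12 and 6.71.

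MT tumors did not follow this. MT4 differed from the mean of MT1 to MT3 by -0.19 for Col1a1 and by 1.09 for Postn, and the list median was -0.14 in MT. MT3, in the 5-tumor branch, had the list at -0.53 from the mean of the 8 tumors, near KO1 at -0.55 and KO4 at -0.49, so only Mmp2 of the 21 genes passed the full rule between the branches. Fn1, encoding fibronectin, and Pdgfra, a fibroblast receptor, did not part the p53-null tumors, with 0.32 for Fn1 and Pdgfra at 5.55 and 5.84 in KO1 and KO4 against 5.61 and 5.79. Smooth muscle genes ran the same way inside p53-null: Tagln, Actg2 and Tpm2, 3 of 12, were lower in KO1 and KO4, with differences of -1.21, -1.13 and -1.08.

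Hypoxia and glycolysis genes were the list with most members higher in KO1 and KO4, 6 of 21 and none lower, with a median of 0.64. They were Adm, the glucose transporter Slc2a1, the growth factor Vegfa, Bnip3, Egln3 and Hk2. Slc2a1 was 10.95 in KO1 and 10.13 in KO4 against 9.47 and 8.61 in KO2 and KO3, and Vegfa was 9.71 and 9.26 against 8.72 and 7.53. MT2 of the 5-tumor branch was at 10.15 for Slc2a1 and 9.33 for Vegfa, so neither gene parted the branches. By its median over the list KO1 stood at 0.65 and MT2 at 0.60 from the mean of the 8 tumors, with KO4 at -0.15 and KO2 at 0.05, so KO4 was high for the 6 genes and not for the list. The glycolytic enzymes Ldha, Aldoa and Pkm differed by -0.23, -0.05 and -0.25.

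**Figure D4:**
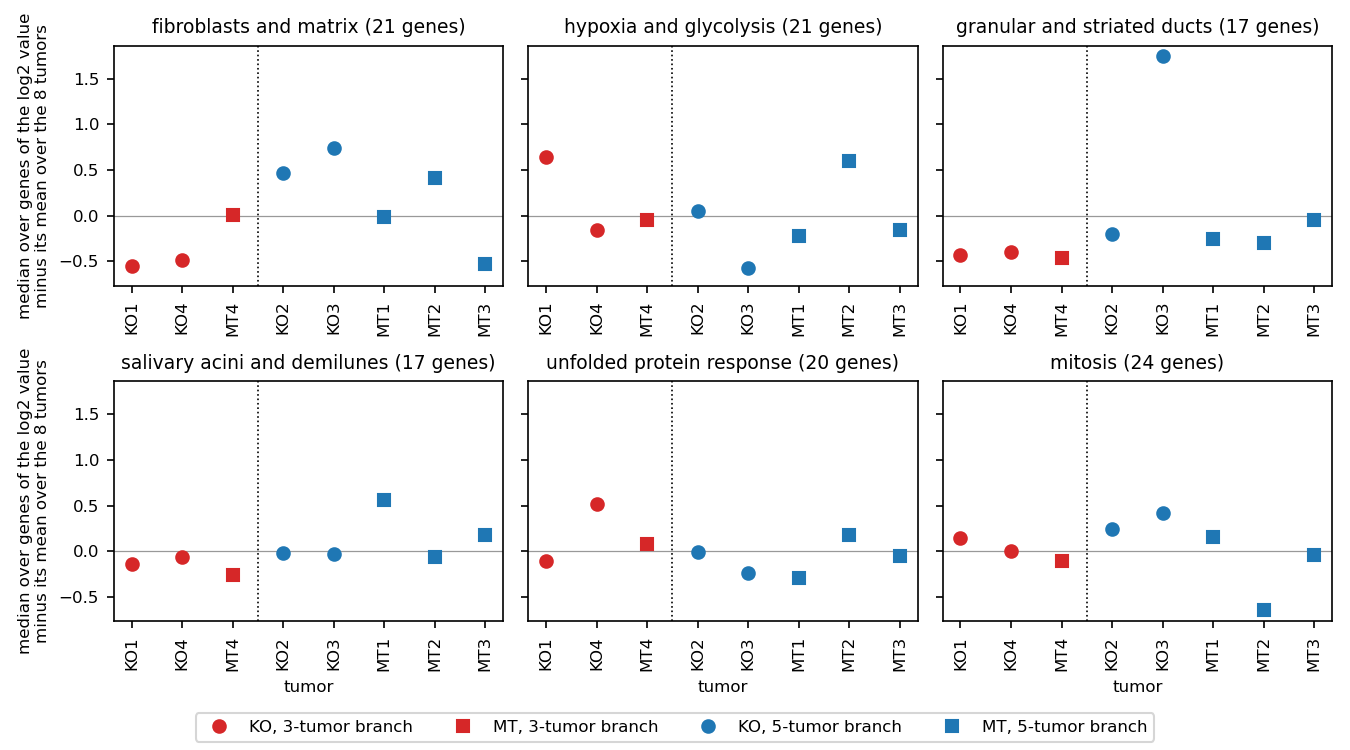
For 6 gene lists, each point is 1 tumor's median over the listed genes of the log2 value minus its mean over the 8 tumors, with the 3-tumor branch left of the dotted line. The fibroblast and matrix list is low in KO1, KO4 and MT3, and the duct list is high in KO3 at 1.75.

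Duct genes stood apart in 1 tumor. The granular duct kallikreins, serine proteases of male mouse salivary ducts, were high in KO3: Klk1b16 was 10.56 there and 3.85 to 4.03 in the other 7 tumors, and Egf was 10.39 in KO3 and 5.24 to 7.85 in the others. Of 17 genes of the list, 6 were lower in KO1 and KO4 by the full rule, 5 of them kallikreins set apart by KO3, and the list median was -1.49. Kallikrein copies are near-identical, and their probe sets may read one another. Foxi1, a factor of ion-transporting duct cells, was 6.81 and 5.28 in KO1 and KO4, 4.98 in MT4, 9.38 and 7.34 in KO2 and KO3, and 9.84, 6.33 and 8.89 in MT1 to MT3. Its branch means differed by -2.67, with KO1 above MT2. Of 17 acinar genes, Amy1, Bpifa2 and Cst10 were higher and Car6 lower in KO1 and KO4, so acinar genes did not share a direction.

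Other lists gave single members. Between the branches these were Cxcl2, a neutrophil chemokine, with a difference of 1.45, Fzd7, a Wnt receptor, with 1.02, Clk1, a kinase of splicing factors, with 1.05, the proteasome subunit Psmc4 with 1.35 and Srebf1, the regulator of fatty acid synthesis, with -1.16, beside Amy1, Clu, Igfbp4 and Mmp2. For Cxcl2 most of it was MT4, at 7.53 against 4.54 to 5.64 in the other 7 tumors. Of 28 splicing factors, 7 were higher and 1 lower with no overlap at any size, the higher ones by 0.27 to 1.05. Of 20 unfolded protein response genes, 3 chaperone genes, Hsp90b1, Pdia6 and Sdf2l1, were higher with no overlap, by 0.79 to 0.95, and the median was 0.36. Vim, encoding the mesenchymal filament vimentin, had a difference of -0.97 with no overlap. None of 24 mitosis genes parted the branches even without a minimum size. Of 25 p53 targets none passed the full rule while Btg2, Fas and Ercc5 were higher with no overlap, by 0.92, 0.48 and 0.47. Over all genes, 5.12% were higher and 11.2% lower with no overlap at any size, and 1.19% and 0.347% by the full rule. At those shares a list of this length can hold few members or none.

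Markers of blood, vessel, fat, muscle and nerve, which bulk tumor can hold, did not part the branches by the full rule. None of the 9 lists for such cells other than fibroblasts and smooth muscle had a member past it. Over all genes only 1.19% were higher and 0.347% lower by that rule, so lists this short can hold none at that share. With no minimum size, 0 members of these lists were higher with no overlap, against 5.12% of all genes. Lower with no overlap were at most 3 a list, as in endothelium (3 of 16), T and NK cells (3 of 15) and nerve (3 of 12), against 11.2% of all genes. The list medians were between -0.27 and -0.02. The exception stood outside the lists: a probe set shared by the beta globin genes, read from red blood cells, was 10.71 in KO1, 10.26 in KO4 and 9.74 in MT4 against 10.85 to 12.30 in the 5-tumor branch, a difference of -1.38. Of salivary markers, the transporter Slc12a2 was 12.01 to 12.76 in the 8 tumors and 11.80 to 12.50 in WT tumors, while the secretory genes Prpmp5 and Dcpp1 were lower than in WT tumors in all 8. Prpmp5 was 5.45 to 10.83 against 11.49 to 12.03, and Dcpp1 was 5.90 to 8.13 against 8.27 to 11.09.

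The parting genes were spread unevenly over chromosomes. On chromosome 1, 41 of 709 genes were higher in the 3-tumor branch by the full rule and 0 lower, and 22.6% of its genes were higher with no overlap at any size, against the 5.12% over all. On chromosome 12, 20 of 384 were higher and 0 lower. By the full rule, 5.78% of the genes of chromosome 1 and 5.21% of those of chromosome 12 were higher, against 1.19% of all genes. Only 0.347% of all genes were lower, so 0 lower of 384 is close to that share. Chromosome 11 was the reverse, with 0 of 1043 higher and 16 lower (1.53%). At any size 27.4% of its genes were lower with no overlap, against 11.2%. Of the 15 lowest genes named above, 6 are on chromosome 11 (Stac2, Emid1, Grb10, Igfbp4, Gabrp and C1qtnf1) and 4 on chromosome 6 (Fbln2, Rps4l, Mgll and Fam234b).

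The shift of chromosome 11 was largest in KO4 and KO2, and its size differed between tumors of a branch. The median gene of chromosome 11 was at -0.12 in KO1, -0.25 in KO4 and -0.11 in MT4 from its mean over the 8 tumors, and at 0.21 in KO2, 0.10 in KO3, 0.04 in MT1, 0.07 in MT2 and 0.05 in MT3. The branches did not overlap on this chromosome, and KO4 and KO2 were the extremes. With the genes put in 4 equal runs along the chromosome, all 4 runs lay between -0.33 and -0.18 in KO4 and between 0.14 and 0.24 in KO2. The runs lay between -0.17 and -0.10 in KO1, between -0.14 and -0.08 in MT4 and between 0.08 and 0.12 in KO3. Relative to each tumor's median over all genes, chromosome 11 was at -0.04 in KO1, -0.22 in KO4 and -0.07 in MT4. Chromosome 1 was at 0.15 in KO1 and 0.11 in MT4 but -0.02 in KO4, close to -0.02 in KO2, and at -0.03 to -0.11 in the other tumors, and none of the 8 tumors had all 4 runs of chromosome 1 beyond 0.1 in either direction.

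Other chromosomes were shifted in single tumors. MT2 was at -0.31 on chromosome 9, with its 4 runs between -0.45 and -0.23, and at -0.25 on chromosome 12, where KO2 was at -0.22. MT4 was at -0.23 on chromosome 6 and -0.21 on chromosome 15, KO1 at -0.22 on chromosome 14, MT1 at -0.24 on chromosome 3 and KO2 at 0.24 on chromosome 18. Of 160 pairs of a tumor and a chromosome, all 4 runs were above 0.1 in 7 and below -0.1 in 17. Relative to each tumor's median over all genes, which ran from -0.08 to 0.05, only chromosome 1 (higher) and chromosomes 11 and 14 (lower) had no overlap between the branches. Copy number was not measured here, and its part in these values was not tested.

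**Figure D5:**
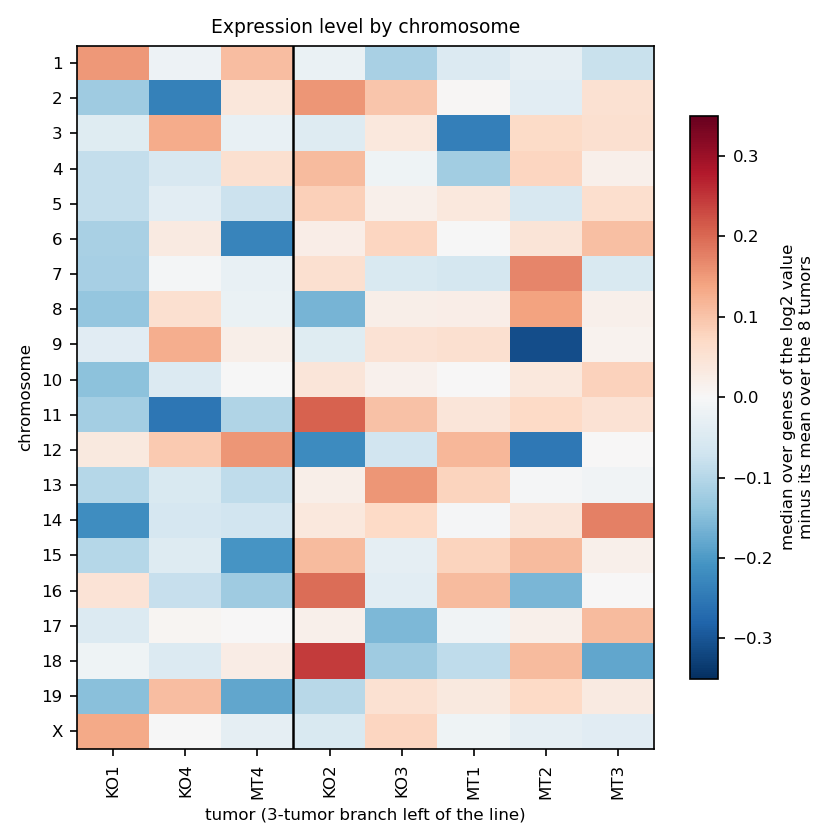
Color gives, for each tumor (columns, 3-tumor branch left of the line) and chromosome (rows), the median over genes of the log2 value minus its mean over the 8 tumors. Chromosome 11 is low in KO1, KO4 and MT4 (-0.25 to -0.11) and high in KO2 (0.21), and MT2 is lowest on chromosome 9 (-0.31).

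The genes higher in the 3-tumor branch were longer than most. Their median length on the genome was 34.5 kb (middle range 17.8 to 69.0 kb) over 249 genes, against 20.1 kb (8.12 to 47.9 kb) over 12369 genes with a length and 17.8 kb over the 63 lower ones. GC content around the start was 62.7% in the higher and 62.6% in the lower genes, against 59.3% over all genes with a promoter entry. Genes named as numbered zinc finger proteins (Zfp) were 12 of 249 higher genes, 0 of 63 lower ones and 173 of 12399 in all, a count looked at after the values were seen.

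Trp53 followed genotype and not branch. On 1 of its 2 probe sets it was 5.85 in KO1, 6.33 in KO2, 6.24 in KO3 and 6.36 in KO4, so the p53-null tumors of both branches lay together and below every other tumor. It was 8.80 in MT1, 9.03 in MT2, 8.82 in MT3 and 7.88 in MT4, with MT4 lowest, and 7.38 to 8.01 in WT tumors. The second probe set gave the same order of groups, with MT4 at 8.18 and the other MT tumors at 9.13 to 9.29.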

How the data were processed

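Expression was measured on 1 Affymetrix mouse array per tumor in 12 tumors, 4 of each genotype, and the number of arrays limits the precision. The deposited log2 values were made by the authors with RMA, in BRB-ArrayTools 3.5.0 per the study's methods; the submitters' processing notes name RMA and MAS5. The labels give the tumors as separate samples. The table held 22690 probe sets, 64 of them array controls that did not enter the clustering. Of the other 22626, 20380 had 1 gene symbol, 691 several, 9 were named only by the study's cluster list (Trp53 among them) and 1546 had none. Chromosomes, gene order, lengths and promoters came from RefSeq tables of GRCm38.p6. The transgene's own level was not analysed here.

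A probe set parted 2 sets of tumors where their values did not overlap and their means differed by at least 1. Named genes were the 15 highest and 15 lowest by branch difference, the 10 highest and 10 lowest inside KO with MT4 not on the same side, up to 4 members per list with the largest differences, and Trp53; further list members, the unnamed probe set and the beta globin probe set were chosen after their values were seen. Lists used the probe set of each gene with the highest mean. Control measures were compared by exact permutation over 56 splits with Benjamini-Hochberg adjustment over 6 measures. The branches, lists and rules were chosen with earlier results of these data known. The code was tested on simulated data. Alternatives covered clustering distance and linkage, normalization, minimum difference, probe set choice, dim probe sets, the low poly-A side and leaving out each tumor. Normalizations were rerun in R 4.3.3 with limma 3.58.1, tests in scipy 1.17.1 and all else in Python 3.11.15 with pandas 2.3.3 and numpy 2.4.6, and figures were drawn with matplotlib 3.10.9.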

Additional observations from a re-analysis of the deposited data

Results flagged for a closer look

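Among 116 groups of 4 tumors of 1 genotype, 7 values (6.03%) stood far from the other 3 of their group. The limit used flags about 1 in 20 groups by chance, but most groups were of genes named for how these tumors divide. That rate therefore cannot be set against the 6.03%. Of the 7 values, 1 was in a KO tumor and 6 were in MT tumors, 4 of them in MT4. MT4 was the far value for Krt79 at 5.53, for a Trp53 probe set at 8.18, for the poly-A controls at 4.05 and for 18S ribosomal RNA at 7.66. MT2 was the far value for Adm at 8.28 and for Rgs6 at 6.66, and KO1 for 18S ribosomal RNA at 8.03.

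For 4 genes the p53-null and R172H tumors were divided in opposite directions, a difference that was not tested. The MT difference minus the KO difference was -3.79 for Lmod2 (KO 2.86, MT -0.93), -3.38 for Tnnt2 (KO 2.71, MT -0.67), -3.48 for Aldh18a1 (KO 2.62, MT -0.86) and 5.91 for Tcfl5 (KO -2.19, MT 3.72). Each MT value rests on the single tumor MT4.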

How the results depend on the processing

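No paired analysis was possible because the branch differences come from no test, and the replicate numbers only name tumors. Branch membership was the same for all 8 tumors under the 11 other settings run and for the remaining 7 in each of 8 leave-one-out trees. The counts of parting probe sets depended on the minimum difference and on counting genes once. With a 1.5-fold minimum, a 4-fold minimum and 1 probe set per gene, the branches were parted by 875, 19 and 147 probe sets upward and by 500, 2 and 43 downward, and the KO tumors by 1651, 67 and 294 upward and by 1364, 25 and 171 downward. On the low poly-A side alone, 169 were lower in the 3-tumor branch. Leaving out 1 tumor at a time gave 322 to 533 higher and 74 to 168 lower between branches, 665 to 984 higher and 328 to 796 lower inside KO, and 852 to 999 higher and 549 to 688 lower inside MT, fewer tumors being left to overlap. The branch difference of Trp53, -1.15 on both probe sets, reversed on the low poly-A side, to 0.41 and 0.29, where MT4 is the only MT tumor left. The other 186 alternative values of named genes and all 336 leave-one-out values kept their direction. List medians moved by more than the spread in 31 of 378 alternatives and in 46 of 504 leave-outs. The alternatives for the MT counts, for the genotype and poly-A counts and for chromosome medians were chosen after seeing the data. None changed these counts by over 1.5 times. Of the chromosomes, only the branch differences of chromosomes 1, 2, 6, 9, 11 and 12 were rerun. None of these medians moved by more than the spread among tumors of a branch. The other chromosomes and the medians of single tumors were not rerun. The largest leave-one-out range among the control measures was that of the poly-A controls, -4.87 to -3.25.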

Other observations

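Genes of the Y chromosome, looked at after their values were seen, did not follow the branches. Eif2s3y was 8.55 in KO1, 6.84 in KO4 and 9.37 in MT4, and 3.57 in KO2, 8.62 in KO3, 6.71 in MT1, 3.78 in MT2 and 5.04 in MT3. KO3 was thus as high as the 3-tumor branch, and KO2 and MT2 were lowest. A probe set of Uty was 8.94, 7.33 and 9.10 in KO1, KO4 and MT4, and 6.79, 8.38, 7.07, 4.14 and 4.74 in KO2, KO3, MT1, MT2 and MT3. The first Xist probe set was at 3.77 to 4.06 in all 12 tumors.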
